A study of Mus musculus with 15 samples.

Results

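Gene expression in 2 brain regions, the hypothalamus and the hippocampus, was set against that in 3 peripheral tissues, the liver, the epididymal fat and the colon. A gene is called brain-high here when its lowest level among the 6 brain libraries was above its highest level among the 9 peripheral libraries, and peripheral-high when the reverse was true. Levels are given as CPM, the reads counted on a gene divided by the reads counted on all genes with a name in that library, times 1000000. The table held 33603 loci, of which 23589 carried a gene name, and 21196 of these had at least 1 count in some library. Among the detected genes 4229 (20.0%) were brain-high and 1692 (7.98%) were peripheral-high, and the levels of the others overlapped between the groups. These shares are the background for every count of such genes below.

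The tissues came from male C57BL/6 mice on 3 diets. AL mice were fed ad libitum and were 5 months of age. DR mice received 40% less food for 1 month, starting at 4 months of age, and were also 5 months of age. DR-AL mice went through the same restriction, were returned to ad libitum feeding, and were 7 months of age, so diet and age cannot be told apart in them. Each tissue and diet gave 1 library of RNA pooled over the mice of the group, and the same pools of mice gave all 5 tissues. The 3 libraries of a tissue therefore stand for 3 diets and are not replicates of 1 condition. A p-value below sets a difference against the spread left between libraries after the terms of the fit, and not against the spread between mice. An exact permutation of 2 brain regions against 3 peripheral tissues cannot give a two-sided p below 0.1.

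Neurons and the glia around them share a set of genes for excitability, synapses, long cell processes and myelin that most other cells do not use. Liver cells, fat cells and the epithelium of the colon differ widely from each other, but all handle fat, sugars and foreign compounds and all meet circulating immune cells. In whole tissue, a lower share of a cell type and less RNA of a gene in each cell cannot be told apart.

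Each library held between 21767088 and 40500130 counted reads on genes with a name. The markers of liver, fat, colon mucosa and hypothalamus summed highest in the tissue of that label, although Alb was listed at 0 counts in every library and is not read here. The 7 hippocampus markers summed to 604 to 708 CPM in the hippocampus and to 1764 to 3270 in the liver, where Tdo2, an enzyme of tryptophan breakdown, held 1661 to 3181 CPM, and to 514 to 1122 in fat, where Spink8 held 128 to 1079. The liver marker Ttr, also made by the choroid plexus, was at 1641 to 2693 CPM in the hippocampus. The hippocampus marker Neurod6 was at 186 to 261 CPM there and at most 0.339 in the periphery. Markers of other tissues were also counted in some libraries. The 8 detected liver markers summed to 4802 CPM in fat of AL mice, against 53.4 and 17.8 in the other fat libraries and 33550 to 42540 in liver. Crisp1, an epididymal secretory protein, stood at 846, 2802 and 4584 CPM in fat of the AL, DR and DR-AL mice, and the sperm protamine Prm2 at 1.64, 171 and 771 CPM. The colon marker Lypd8 was at 9.37, 0.427 and 0.321 CPM in the 3 hypothalamus libraries. Without the fat library of AL mice, 4268 genes were brain-high and 1726 peripheral-high, and without the hypothalamus library of AL mice, 4292 and 1796.

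The brain-high genes stood further apart than the peripheral-high genes, which is a description, since the values are those the rule used. The 2 directions are also not alike. The lowest value is taken over 6 libraries of 2 brain regions in one and over 9 libraries of 3 tissues in the other. By CPM the median expressed gene was 0.31 higher in brain on the log2 scale. The part of either in the difference was not tested. The gap, the lowest CPM of the higher group over the highest CPM of the lower group, with the latter taken as no less than 3 counts, had a median of 2.20 over the brain-high genes and 1.53 over the peripheral-high genes. It was 10 or more for 884 brain-high genes (20.9%) and 78 peripheral-high genes (4.61%), and 100 or more for 182 and 6. No count at all was found in any peripheral library for 70 brain-high genes, and in any brain library for 26 peripheral-high genes. At least 100 counts in every library of the higher group were found for 3667 brain-high and 1244 peripheral-high genes. Together the brain-high genes took 50.3% to 51.6% of the counts in the hypothalamus and 55.1% to 55.7% in the hippocampus, against 4.97% to 5.02% in the liver, 9.98% to 12.1% in fat and 8.43% to 8.90% in the colon. The peripheral-high genes took 4.49% to 5.30% of the counts in brain, against 31.8% to 34.6% in the liver, 20.0% to 25.1% in fat and 23.2% to 23.8% in the colon.

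Epididymal fat most often set the limit. The peripheral library closest to brain was a fat library for 3145 (74.4%) of the brain-high genes, a colon library for 777 and a liver library for 307. Among the fat libraries it was that of DR-AL mice for 1891 genes (44.7%), of DR mice for 979 and of AL mice for 275. In the same order, the epididymis markers summed to 5193, 3248 and 917 CPM and the testis markers to 2818, 583 and 4.77. Their part in the limit was not tested. Of the peripheral-high genes, 1208 (71.4%) had their highest brain level in the hypothalamus and 484 in the hippocampus. Just inside the rule lay Srp72, at 116.42 CPM in its lowest brain library and 116.31 in its highest peripheral library, and just outside lay Ssbp3, at 131.21 and 131.26 CPM. On the other side 2810428I15Rik, at 18.264 CPM in its lowest peripheral library and 18.204 in its highest brain library, lay just inside and Tmem51, at 6.4687 and 6.4703 CPM, just outside.

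How the libraries were scaled moved the split. By CPM the median expressed gene was already 0.31 higher in brain on the log2 scale, and by CPM scaled with TMM factors, which align the bulk of the genes, it was -0.09. With the TMM factors 3737 genes were brain-high and 2570 peripheral-high, of which 3566 and 1615 were also called by CPM. Changes near this shift in size are therefore to be read against it, whereas most genes named below stand far beyond it.

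Astn1, a membrane protein of migrating and maturing neurons (chr1:158362102-158691786 of GRCm38), had the widest gap among brain-high genes with at least 100 counts in every brain library. Its CPM had a lowest, median and highest value of 334, 368 and 409.9 in brain and 0.0404, 0.23 and 0.307 in the periphery, so every brain library was at least 1088 times every peripheral library. Next came Omg, a myelin-associated glycoprotein on oligodendrocytes and neurons (chr11:79500982-79504082), with 125, 136 and 160.4 CPM in brain and 0, 0.0404 and 0.151 in the periphery. For both genes the highest brain library was less than 2-fold above the lowest, and the peripheral libraries held at most 9 counts each.

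Others of this top group were Stmn3, a regulator of microtubules, Vsnl1 and Calb1, which bind calcium, Rph3a and Syt4, which act in vesicle traffic, Cacng2, an auxiliary subunit of AMPA receptors known as stargazin, and Ralyl, an RNA-binding protein. Their lowest brain CPM ran from 70.5 for Ralyl to 420.0 for Vsnl1. In the periphery the highest CPM of any of them was 0.64, that of Vsnl1 in the colon. Calb1 was the one of them with the largest difference between regions, at 333, 288 and 218 CPM in the hypothalamus and 118, 127 and 137 in the hippocampus of AL, DR and DR-AL mice.

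**Figure D1:**
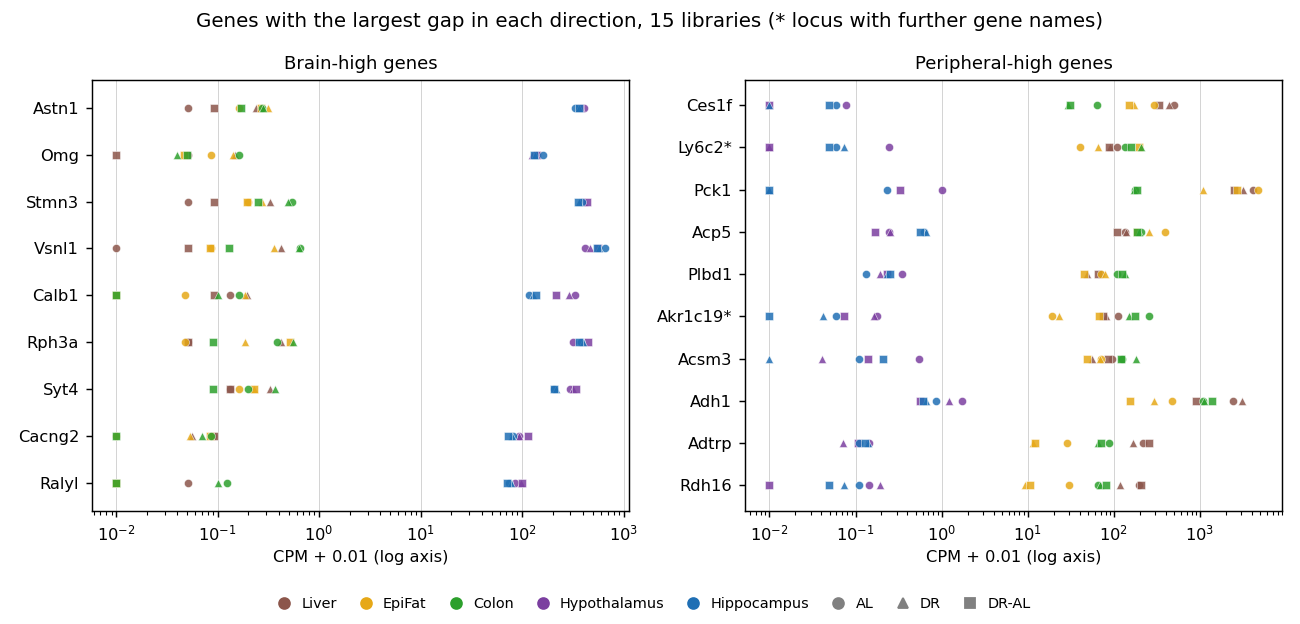
CPM plus 0.01 on a log axis of 9 of the 10 brain-high and of the 10 peripheral-high genes with the widest gaps among genes with at least 100 counts in every library of the higher group, one point per library, coloured by tissue and shaped by diet. Every brain library of Astn1 lies at 334 CPM or above and every peripheral library at 0.307 or below, while Ces1f lies at 29.5 CPM or above in the periphery and at 0.0674 or below in brain.

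Proteins of vesicle release were brain-high without exception, 19 of 19 on a list of them. Their median log2 difference between brain and periphery in the fit of edgeR was 7.20, against 0.02 over all 17476 genes tested. In that fit 31.1% of all genes tested were at least 2-fold higher in brain at an adjusted p under 0.05 and 26.2% were higher in the periphery. Snap25, a SNARE of the presynaptic membrane (chr2:136713439-136782428), had a lowest, median and highest CPM of 1121, 1983 and 2828 in brain and 0.162, 1.05 and 4.11 in the periphery. Syt1, the calcium sensor of fast release, stood at 721 to 2181 CPM in brain and 0.479 to 16.4 in the periphery. Syn1 and Cplx1, a vesicle-associated phosphoprotein and a clamp of the SNARE complex, were at 449 to 661 and 144 to 615 CPM in brain, and neither passed 1.11 CPM in a peripheral library. The smallest gap of the list was 5.2, for the vesicle SNARE Vamp2, at 873 to 1112 CPM in brain and up to 168 in fat.

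On the receiving side of the synapse, 11 of 13 detected scaffold genes were brain-high, with a median log2 difference of 6.87. Camk2a, a kinase of the postsynaptic density, was at 591, 2351 and 4049 CPM in brain (lowest, median and highest) and at most 3.99 in the periphery. Dlg4, the scaffold PSD-95, ranged from 479.8 to 804 CPM in brain and from 0.408 to 11.3 in the periphery. The scaffolds Baiap2 and Shank3 overlapped, since fat reached 92.9 CPM of Baiap2 and 166 of Shank3, whereas the lowest hypothalamus libraries held 74.6 and 110.2. The adhesion proteins that align both sides of the synapse, such as neurexins and neuroligins, were brain-high in 15 of 15 cases, from Lrrtm2 at 66 to 91.7 against at most 0.23 CPM to Negr1 at 220.1 to 245 against at most 64 CPM.

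Receptors followed the same pattern. All 13 listed glutamate receptor genes and all 13 listed genes of GABA signalling were brain-high, with median log2 differences of 8.99 and 10.05. Gria2, the AMPA receptor subunit that sets calcium permeability, stood at 414, 414 and 392 CPM in hypothalamus and 812, 942 and 895 in hippocampus of AL, DR and DR-AL mice, and at most at 0.866 in the periphery. Grin1, the obligatory NMDA receptor subunit, was at 386 to 481 CPM in brain and at most 1.14 elsewhere. Of the enzymes that make GABA, Gad1 was at 329 to 416 and Gad2 at 206 to 496 CPM in brain, and their highest peripheral values were 0.768 CPM in fat and 2.15 CPM in the colon. Grik5, a kainate receptor subunit, had the smallest gap among these 26 genes, with 186 to 225 CPM in brain and up to 58.8 in fat.

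Ion channels of excitable cells were brain-high in 12 of 12 sodium and calcium channel genes and 13 of 13 potassium channel genes. Scn1a, a sodium channel of inhibitory neurons, stood at 93.6 to 158 CPM in brain and at most 0.695 in the periphery. Kcnq3, a subunit of the M current, stood at 77.6 to 284 and at most 0.585 CPM. Kcnj10, a potassium channel of astrocytes, was at 501, 447 and 403 CPM in hypothalamus, 194, 190.5 and 171 in hippocampus and at most 1.06 in the periphery. The whole family of potassium channel genes was less uniform, with 45 brain-high and 2 peripheral-high among 87 detected. Those 2 were Kcne3, at 91.5, 154 and 98.6 CPM in the colon and at most 0.352 in brain, and Kcnk5, at 169, 169.9 and 171 CPM in the colon and at most 1.44 in brain. Gene families were chosen after values had been seen, and Kcne3 and Kcnk5 are named for their direction.

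The genes of the neuronal cytoskeleton were brain-high in 14 of 14 cases and those of neuronal RNA-binding proteins in 12 of 12. Gap43, a protein of growing axons, was at 526, 479.9 and 524 CPM in hypothalamus and 152, 143 and 146 in hippocampus, and at most at 0.35 in the periphery. The dendritic protein Map2 was at 1053 to 1585 CPM in brain and reached 25.3 in fat. Elavl4, which stabilises neuronal transcripts, ranged from 85.5 to 128 CPM in brain and did not pass 0.512 elsewhere. The splicing regulator Nova1 had the narrowest gap of these lists, 1.71, at 49.7 to 171 CPM in brain and up to 29.2 in fat.

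Many of these proteins have a close relative in other tissues, and 25 pairs of such relatives were compared. The relative used by brain was brain-high in 24 of the pairs, the exception being the glucose transporter Slc2a3, at 112 to 152 CPM in brain and 0.15 to 209 in the periphery. The other relative was peripheral-high in 4 pairs, brain-high in 5 and overlapping in the rest. Opposite calls were thus given to Ptbp2 and Ptbp1, splicing repressors of which the first replaces the second as neurons mature. Ptbp2 was at 117 to 159 CPM in brain and 8.21 to 52.8 in the periphery, and Ptbp1 at 25.9 to 60.9 and 66.7 to 206 CPM. Among elongation factors, Eef1a2 was at 671 to 814 CPM in brain and 0.12 to 6.53 in the periphery, while Eef1a1 was at 2794 to 3786 and 4224 to 7385 CPM. Eef1a1 thus stood above Eef1a2 in brain as well.

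For membrane fusion, Snap25 and Vamp2 were brain-high and their relatives Snap23 and Vamp8 peripheral-high. Snap23 was at 11.2 to 23.5 CPM in brain and 23.8 to 60.7 in the periphery, so it only just passed the rule. Vamp8 was at 5.42 to 10.4 and 59.5 to 213 CPM. A second group kept both relatives higher in brain. Tubb5, Elavl1, Rbfox2, Celf1 and Mapk9 were brain-high beside Tubb3, Elavl3, Rbfox3, Celf4 and Mapk10, but by less. Elavl1, for example, was at 83.1 to 96.0 CPM in brain and 29.2 to 69.3 in the periphery, when Elavl3 was at 269 to 299 and 0.04 to 1.49. For the glycolytic enzyme enolase, Eno2 was at 774 to 889 CPM in brain and 0.16 to 5.74 elsewhere, whereas Eno1 overlapped, at 460 to 498 and 251 to 660 CPM.

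**Figure D2:**
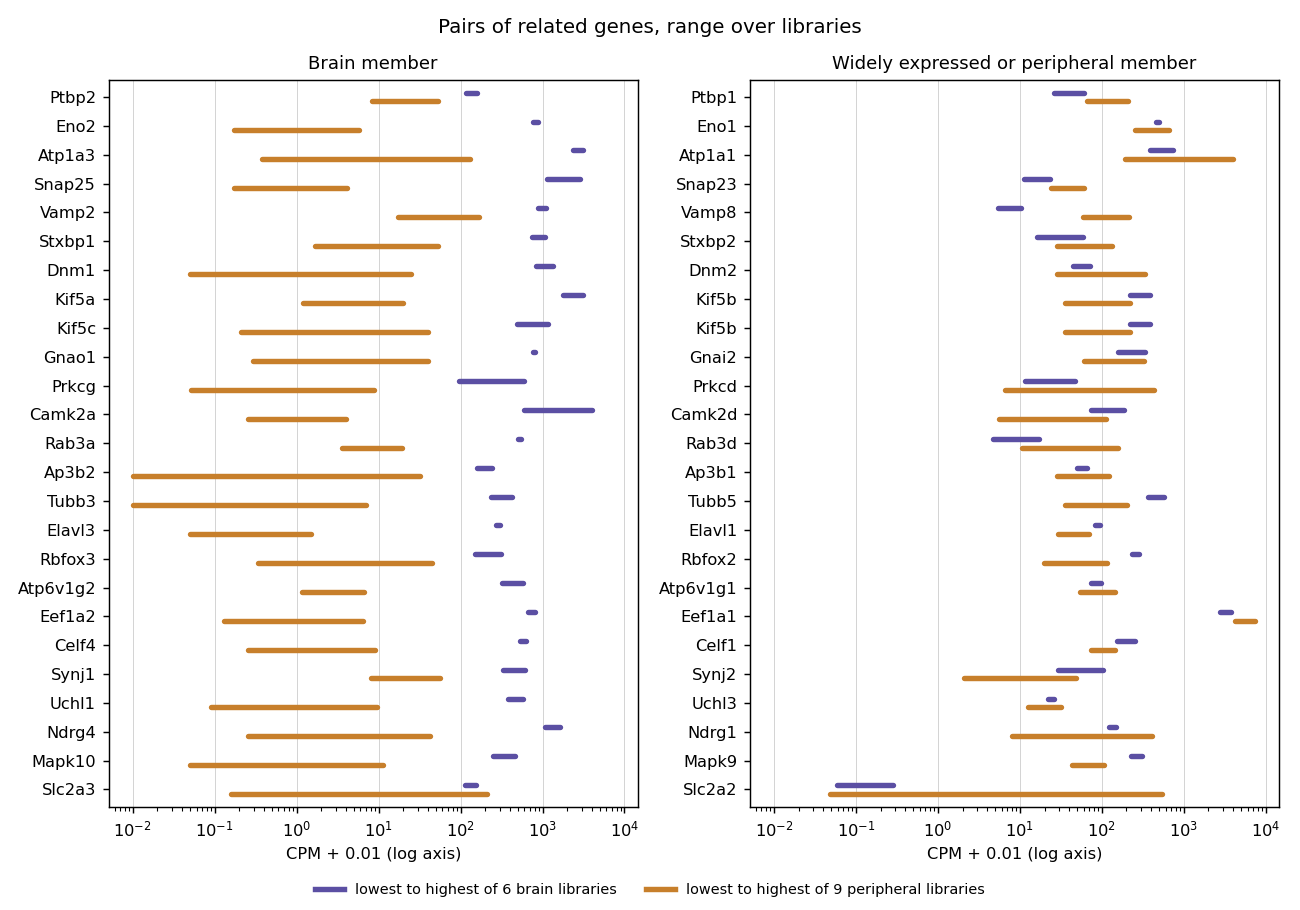
Ranges of CPM on a log axis over the 6 brain and the 9 peripheral libraries for both members of the 25 pairs of related genes. The bars of the member used by brain do not overlap between brain and periphery in 24 pairs, and the other member is peripheral-high for Ptbp1, Snap23, Vamp8 and Eef1a1.

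Transcription factors of neural cells were brain-high in 10 of 13 cases, although at lower and more regional levels. Sox2, a factor of neural progenitors and glia, was at 72.4, 73.3 and 65.4 CPM in hypothalamus and 37.7, 33.6 and 42.9 in hippocampus, and at most at 0.643 in the periphery. Myt1l, a repressor of other cell fates in neurons, was at 115 to 316 CPM in brain and at most 2.49 in the periphery. Neurod6, a factor of excitatory forebrain neurons, was brain-high even though the hypothalamus held only 0.404, 1.07 and 1.86 CPM of it, because no peripheral library passed 0.339. Bcl11b, Lhx6 and the locus of Pou3f3 overlapped, with 21.9 CPM of Bcl11b in the colon and 29.5 of Lhx6 in fat. Under the other scalings between 8 and 10 of the 13 were brain-high.

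Rest, a repressor that keeps many neuronal genes silent outside the nervous system, was itself peripheral-high, at 6.94, 8.77 and 10.1 CPM in brain and 15.2, 28.8 and 35.2 in the periphery (lowest, median and highest). Both regions lay below every peripheral library, with a gap of 1.51. Of the other 10 genes on the list of its cofactors, Hdac2 was brain-high at 82.2 to 95.5 against at most 75.2 CPM, and 9 overlapped. Rcor1, the corepressor CoREST, ranged over 23.1 to 27.5 CPM in brain and 12.4 to 119.8 in the periphery.

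The recognition element of REST, called RE1, was looked for as AGCACCNNGGACAG on both strands in the 250 bases before 1 annotated start of each gene, the one listed first in the RefSeq promoters of GRCm38.p6, which can lie inside the gene, downstream of its outermost start. It was found in 9 of the 3238 brain-high genes with such a promoter (0.278%), in 0 of 1339 peripheral-high genes, in 10 of 15868 detected genes (0.0630%) and in 12 of all 27025 promoters (0.0444%). These 9 genes were chosen after their values were seen. The sequences are shown because they are the full set of brain-high genes with this core in the window, each on the strand of its gene and with the match in capitals, which reads CTGTCC where the element lies on the other strand.
Gria2 (chr3:80802974-80803023, minus strand): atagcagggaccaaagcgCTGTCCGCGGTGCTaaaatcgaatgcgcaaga
Gad2 (chr2:22622146-22622195, plus strand): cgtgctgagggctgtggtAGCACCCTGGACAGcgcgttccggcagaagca
Fam163b (chr2:27142547-27142596, minus strand): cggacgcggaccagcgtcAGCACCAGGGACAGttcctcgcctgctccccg
Fbll1 (chr11:35799041-35799090, minus strand): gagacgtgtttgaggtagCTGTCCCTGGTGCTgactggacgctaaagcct
Scamp5 (chr9:57468180-57468229, minus strand): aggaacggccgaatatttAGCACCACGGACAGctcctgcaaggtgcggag
Ogdhl (chr14:32321899-32321948, plus strand): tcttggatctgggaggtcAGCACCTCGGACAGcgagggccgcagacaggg
Robo2 (chr16:75447338-75447387, minus strand): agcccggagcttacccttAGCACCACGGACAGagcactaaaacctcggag
Hrh3 (chr2:180104559-180104608, minus strand): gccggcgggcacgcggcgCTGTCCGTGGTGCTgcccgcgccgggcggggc
Lhx3 (chr2:26208258-26208307, minus strand): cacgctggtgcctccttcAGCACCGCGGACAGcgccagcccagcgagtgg

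The genes that carried this core differed widely in level and gap. Fam163b stood at 45.6, 49.9 and 45.1 CPM in hypothalamus, 229, 217 and 164 in hippocampus and at most 0.256 in the periphery. Fbll1 was at 23.9 to 43 CPM in brain and was listed at 0 counts in all 3 liver and all 3 colon libraries. Scamp5, a membrane protein of synaptic vesicles, was at 371 to 469.9 CPM in brain and 5.83 to 89.4 in the periphery, so it was well expressed on both sides. Hrh3, the histamine H3 receptor, was at 115, 94.2 and 93.3 CPM in hypothalamus, 56.4, 53.1 and 67.6 in hippocampus and at most 6.51 in fat. Lhx3, a homeodomain factor of the pituitary and motor neurons, had 3 counts in each hippocampus library and at most 1 in a peripheral library, so its place among the brain-high genes rests on few reads. The detected gene with the core that was not brain-high was Lca5, at 7.58 to 14.2 CPM in brain and 0.0817 to 8.37 in the periphery.

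A second element, the cyclic AMP response element TGACGTCA, which reads the same on both strands, was present in 93 brain-high promoters (2.87%), 20 peripheral-high promoters (1.49%), 2.24% of those of detected genes and 1.62% of all. A set of 5 brain-high genes with it, chosen after values were seen, is shown because they span secreted peptides, a vesicle protein, a kinase and a motor.
Scg2 (chr1:79440069-79440112, minus strand): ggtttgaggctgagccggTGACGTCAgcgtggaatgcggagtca
Sst (chr16:23890867-23890910, minus strand): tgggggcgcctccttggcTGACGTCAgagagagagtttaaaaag
Syn1 (chrX:20921052-20921095, minus strand): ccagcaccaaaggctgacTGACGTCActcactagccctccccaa
Mapk10 (chr5:103211338-103211381, minus strand): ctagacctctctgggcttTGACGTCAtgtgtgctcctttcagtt
Kif5c (chr2:49619242-49619285, plus strand): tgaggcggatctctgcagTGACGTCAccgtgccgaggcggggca

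Of these, Scg2, the granule protein secretogranin II, was at 1278, 1304 and 1330.0 CPM in hypothalamus and 265, 279 and 281 in hippocampus, and at most at 6.31 in the colon. Kif5c, a neuronal kinesin heavy chain, was at 493 to 1181 CPM in brain and reached 39.5 in fat. Letters in a promoter are a description, and nothing about the binding of a factor was measured here. Brain-high promoters more often held at least 10 CpG dinucleotides (68.5%) than peripheral-high promoters (59.2%) or those of all detected genes (55.8%), and less often held TATAAA (6.24%, 9.56% and 9.77%).

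Neuropeptides and the proteins of their secretory granules were brain-high in 13 of 16 cases. Sst, which encodes somatostatin, was at 216, 156 and 128 CPM in the hypothalamus and 223, 238 and 265 in the hippocampus, with up to 4.35 in the colon and at most 0.138 in liver and fat. Pdyn, the precursor of dynorphins, was at 136, 78.2 and 59.8 and 12.9, 10.7 and 16.2 CPM, and at most at 0.12 in the periphery. The 3 that overlapped did so through a single peripheral tissue each. Chga, chromogranin A of endocrine cells, reached 138 CPM in the colon when the lowest hippocampus library held 120.1. Penk, the enkephalin precursor, and Npy, neuropeptide Y, reached 139 and 238 CPM in fat, where Npy was at 20.8, 63.3 and 238 CPM in AL, DR and DR-AL mice. Crisp1 of the epididymis was likewise lowest in the fat of AL mice and highest in that of DR-AL mice, as given above, and its part in the fat values was not tested.

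Glial genes split by cell type. All 12 oligodendrocyte genes were brain-high, with a median log2 difference of 7.94. Mobp, a myelin protein, was at 316, 426 and 597 CPM in brain (lowest, median and highest) and at most 0.628 in the periphery, and Mog, another, at 40.2 to 60.2 CPM against at most 1 count in a peripheral library. Of 13 astrocyte genes 10 were brain-high, among them Gfap, the intermediate filament of astrocytes, at 137 to 329 CPM against at most 0.572. Aldh1l1, an enzyme of folate metabolism much used as an astrocyte marker, was peripheral-high at 45.2 to 67.3 CPM in brain, 948, 1718 and 567 in the liver of AL, DR and DR-AL mice and at least 76.9 elsewhere. The water channel Aqp4 overlapped, because the colon held 265, 615 and 248 CPM of it against 92.9 to 158 in brain.

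Only 5 of 13 genes of microglia and macrophages were brain-high, namely P2ry12, Cx3cr1, Siglech, P2ry13 and Trem2. P2ry12, a nucleotide receptor of resting microglia, was at 21.7 to 45.3 CPM in brain and at most 2.67 in fat. The complement components C1qa, C1qb and C1qc overlapped, with C1qa at 31.1 to 45.7 CPM in brain and 2.21 to 90.9 in the periphery. Of 13 genes of lymphocytes and other leukocytes, 7 were peripheral-high and 1, the actin regulator Coro1a, was brain-high at 34.5 to 70.0 against at most 22.1 CPM. Cd3e, a marker of T cells, was at 0.286 to 2.63 CPM in the periphery, and brain libraries held at most 0.122.

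**Figure D3:**
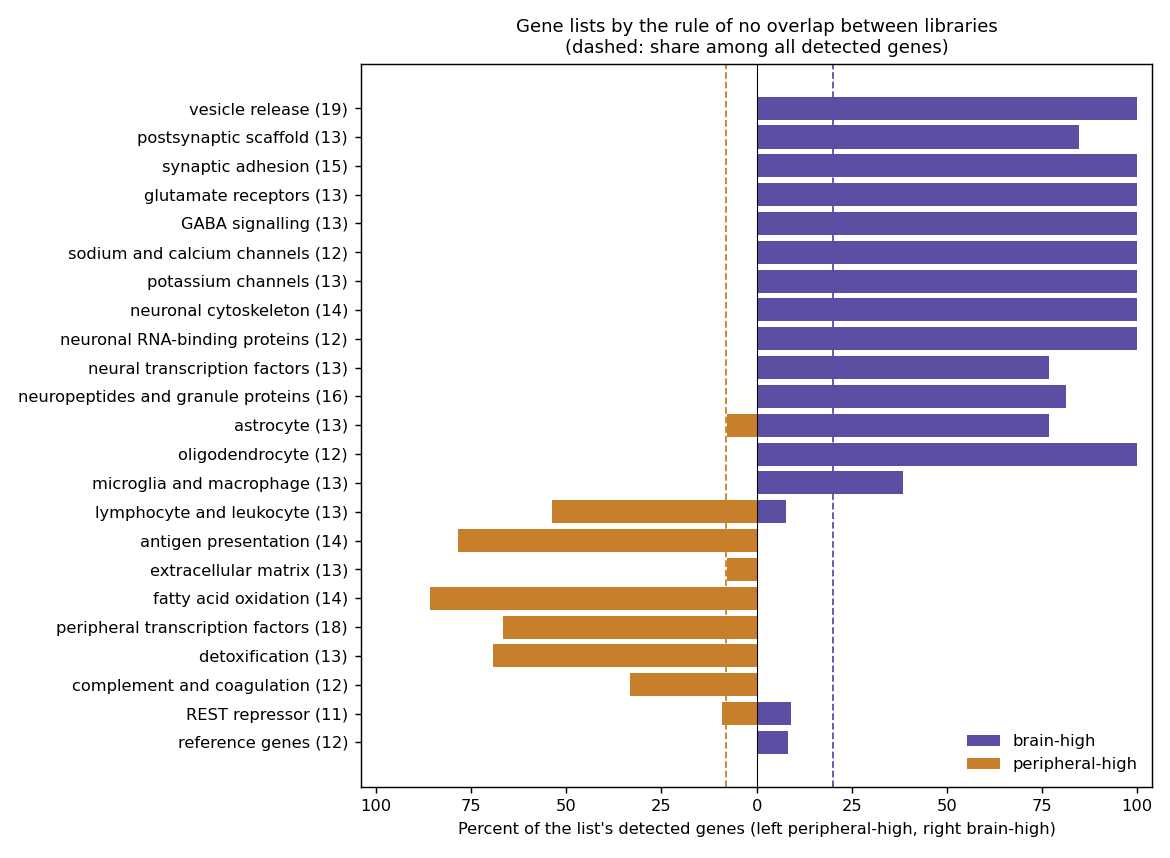
Percent of the detected genes of each list that were brain-high or peripheral-high, with dashed lines at the shares of all detected genes, 20.0% and 7.98%. The lists of synapses, channels, the neuronal cytoskeleton and oligodendrocytes reach 100% or nearly so, and the lists of fatty acid oxidation, antigen presentation, peripheral transcription factors and detoxification lead on the other side.

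The widest gap among peripheral-high genes with at least 100 counts in every peripheral library belonged to Ces1f, a carboxylesterase that splits lipids and drugs (chr8:93256236-93279766). It stood at 493, 434 and 337 CPM in the liver, 289, 170.4 and 151 in fat and 63.8, 29.5 and 31 in the colon of AL, DR and DR-AL mice, and no brain library held more than 2 counts of it. Pck1, the key enzyme of gluconeogenesis and glyceroneogenesis (chr2:173153073-173159274), had a lowest, median and highest CPM of 172, 2451 and 4716 in the periphery and 0, 0.111 and 1.01 in brain. Adh1, an alcohol dehydrogenase that also oxidises retinol (chr3:138277585-138290698), stood at 153, 1074 and 3059 and 0.545, 0.74 and 1.72 CPM. All 9 peripheral libraries were far above all brain libraries for these genes, although the peripheral tissues differed from each other by more than 10-fold. Carboxylesterases and alcohol dehydrogenases belong to families of similar sequence, so reads may be shared among their members.

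The rest of this group holds the locus of Ly6c2 and Ly6f, surface proteins of myeloid cells, Acp5, the tartrate-resistant phosphatase of macrophages and osteoclasts, Plbd1, a phospholipase-like protein of lysosomes, the locus of Akr1c19 and Marcksl1-ps4, and Acsm3, Adtrp and Rdh16, enzymes of fatty acid and retinoid metabolism. Acp5 was at 108 to 138 CPM in the liver, 187 to 395 in fat and 185 to 205 in the colon, and at 0.16 to 0.64 in brain. Plbd1 was the most even, at 45 to 135 CPM over all 9 peripheral libraries and at most 0.337 in brain. Rdh16 and Adtrp, in contrast, were highest in the liver and lowest in fat, where Rdh16 stood at 29.9, 9.24 and 10.6 CPM in AL, DR and DR-AL mice. The AL value is from the fat library in which the liver markers summed to 4802 CPM, and the rule holds for Rdh16 with and without it. The source of those marker counts was not tested.

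Genes of antigen presentation were peripheral-high in 11 of 14 cases, with a median log2 difference of -4.22. H2-K1, a class I heavy chain, was at 1399, 1379 and 1349 CPM in the liver, 1064, 858 and 974 in fat and 1496, 1320.0 and 1373 in the colon of AL, DR and DR-AL mice, against 24.8 to 38.4 in brain. The gap was 22.3, larger than that of any other gene of the list. B2m, the light chain of all class I molecules, was at 457 to 2751 CPM in the periphery and 83.9 to 108 in brain. The class II genes H2-Ab1, H2-Aa, H2-Eb1 and the locus of Cd74 were peripheral-high as well, H2-Ab1 at 17.6 to 178 against 0.769 to 3.27 CPM. The peptide transporter Tap1 and the immunoproteasome subunits Psmb8 and Psmb9 followed, while Psmb10, Tap2 and the transactivator Nlrc5 overlapped. For Nlrc5 the overlap lay in the colon, at 1.47, 0.778 and 1.92 CPM in AL, DR and DR-AL mice against 1.85, 1.65 and 1.73 in the hypothalamus, while fat reached 39.3. Class I heavy chain genes are close copies, so the reads of single members are less certain than those of B2m.

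Interferon response elements are known from the promoters of such genes. The letters GAAANNGAAA on either strand were found in 73 of 1339 peripheral-high promoters (5.45%), 70 of 3238 brain-high promoters (2.16%), 2.77% of those of detected genes and 3.04% of all. A set of 5 peripheral-high genes with them, chosen after values were seen, is shown for its immune functions, with every match in capitals, overlapping ones included, and TTTC first where it lies on the other strand.
B2m (chr2:122147530-122147575, plus strand): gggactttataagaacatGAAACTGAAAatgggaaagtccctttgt
H2-T23 (chr17:36032798-36032843, minus strand): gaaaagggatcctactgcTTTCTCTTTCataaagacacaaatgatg
Irgm1 (chr11:48871421-48871462, minus strand): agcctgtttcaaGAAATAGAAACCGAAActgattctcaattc
Irf2 (chr8:46739495-46739531, plus strand): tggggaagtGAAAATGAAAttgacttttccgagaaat
Myd88 (chr9:119340031-119340076, minus strand): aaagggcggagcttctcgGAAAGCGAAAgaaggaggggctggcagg

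H2-T23, a nonclassical class I chain, was at 61.3 to 369.5 CPM in the periphery and 7.27 to 13.6 in brain. Myd88, the adaptor of Toll-like receptors, was at 13.9 to 36.3 and 4.37 to 6.17 CPM, and Irf2, an interferon regulatory factor, at 41.1 to 139.9 and 24.2 to 28.2. None of these 3 overlapped, and their gaps were 4.52, 2.25 and 1.46. Among all 9 interferon regulatory factors detected, 4 were peripheral-high and none brain-high, and Irf7 had 22.9 to 233 CPM in the periphery and at most 4.01 in brain.

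Fatty acid oxidation was peripheral-high for 12 of 14 genes, with a median log2 difference of -3.29. Cpt2, a mitochondrial carnitine palmitoyltransferase, was at 125 to 244 CPM in the liver, 91.2 to 145 in fat and 113 to 158 in the colon. In brain it was at 6.25 to 13.4. Ehhadh, a peroxisomal enzyme of the same pathway, was at 45.9 to 1758 CPM in the periphery and 2.53 to 6.13 in brain, and Acadm, the medium-chain dehydrogenase, at 203 to 813 and 33 to 41.6. Acsl1 and Acsl5, which activate fatty acids, overlapped, because the lowest peripheral library held 30.6 CPM of Acsl1, in the colon, and 66.2 of Acsl5, in fat, against highest brain values of 70.0 and 83.1. Between 6 and 12 of the 14 genes were peripheral-high under the other scalings, so this list depends on the scaling more than the neuronal ones. Acsl6, a relative of Acsl1 that is outside the list and was chosen after its values were seen, was brain-high at 164 to 177 CPM against at most 17.

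Detoxification enzymes were peripheral-high in 9 of 13 cases. Mgst1, a microsomal glutathione transferase, was at 4241 to 6614 CPM in the liver, 935 to 1604 in fat and 136 to 213 in the colon, and at 8.78 to 24.5 in brain. Por, the electron donor of all microsomal cytochromes P450, was at 278 to 923 CPM in the periphery and 78.8 to 138 in brain. Gstt1, Gstm1, Ephx1 and Fmo1 overlapped, and Gstm1 was at 183 to 278 CPM in brain against a lowest peripheral value of 168. Of 99 detected cytochrome P450 genes, 19 were peripheral-high and 4 brain-high. Cyp46a1, the cholesterol 24-hydroxylase of neurons, was one of the 4, at 120.4 to 137 CPM in brain and 0 to 8.09 in the periphery.

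The transcription factors of liver, gut and fat cells were peripheral-high in 12 of 18 cases, and 17 of the 18 were called higher in the periphery in the fit over all genes. Gata6, a factor of endoderm and mesoderm, was at 7.48 to 9.76 CPM in the liver, 16 to 18.2 in fat and 53 to 54.4 in the colon, and no brain library passed 0.198. Hnf4a, a regulator of liver and gut genes, was at 110.3, 17.2 and 17.1 CPM in fat of AL, DR and DR-AL mice, against 608 to 684 in the liver, 1253 to 1362 in the colon and at most 0.741 in brain. Its highest fat value stood in the library of AL mice, where the liver markers summed to 4802 CPM. With the other 2 fat libraries alone it was also peripheral-high. Those 2, from DR and DR-AL mice, held more of the epididymis markers, 3248 and 5193 CPM against 917 in AL mice. The part of either marker group in the Hnf4a values was not tested. Pparg, the master factor of fat cells, was at 222 to 342 CPM in fat, 68 to 114 in the colon, 8.22 to 12.4 in the liver and 0.303 to 2.15 in brain. Klf5, Foxa2, Nr5a2, Cebpb and Elf3 were among those that overlapped, Klf5 for its 0.276 CPM in one liver library against 9.58 to 16.6 in brain.

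**Figure D4:**
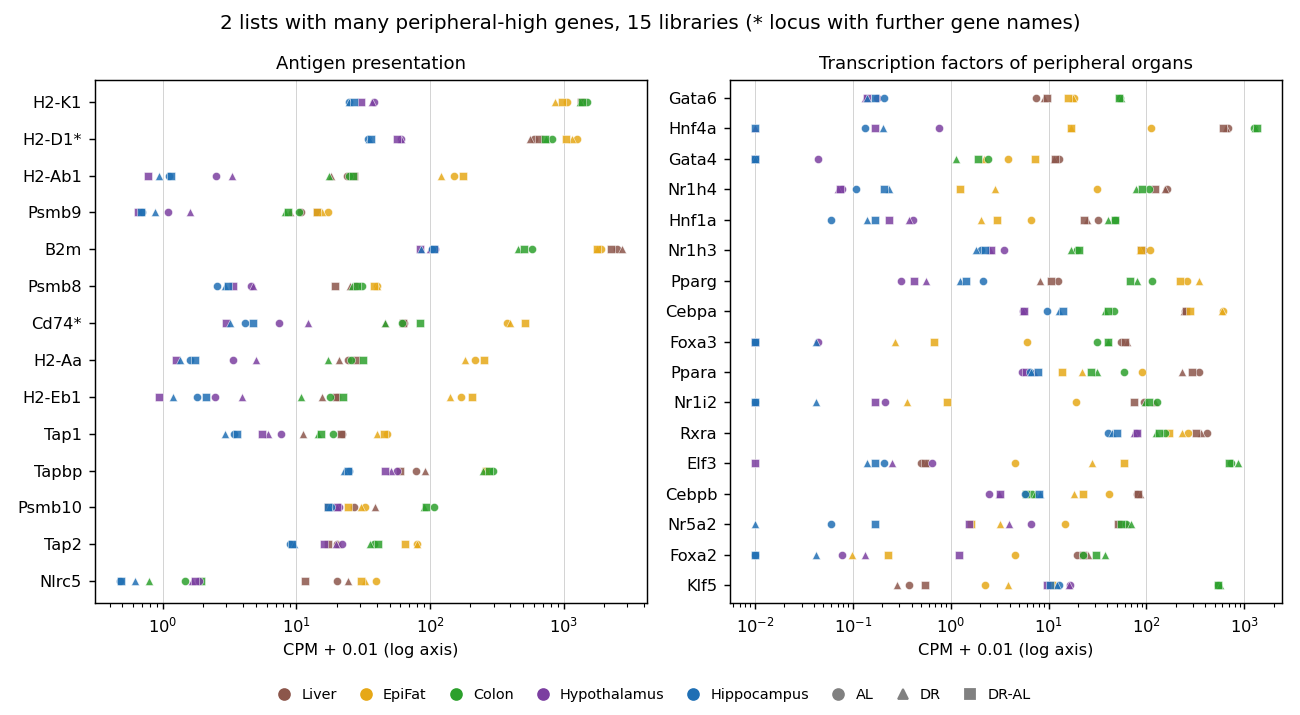
CPM on a log axis of the genes of antigen presentation and of 17 of the 18 peripheral transcription factors, one point per library, coloured by tissue. H2-K1 lies at 858 CPM or above in every peripheral library and at 38.4 or below in every brain library, while Klf5 overlaps.

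Secreted proteins were less uniform. Of 12 genes of complement and coagulation, 4 were peripheral-high, and of 13 genes of the extracellular matrix 1 was, Postn, at 4.39 to 163 CPM against 2.21 to 3.91 in brain. The locus of C2 and Cfb was at 808 to 1335 CPM in the liver, 247 to 522 in fat and 105 to 113 in the colon, and at 1.7 to 8.46 in brain. C3, the central complement component, was at 5223 to 7082 CPM in the liver and 497 to 2185 in fat but only at 7.33 to 18 in the colon, so that it overlapped with its 1.87 to 9.44 CPM in brain. For the fibril collagen Col3a1 the overlap was slight, at 8.19 CPM in the lowest peripheral and 8.21 in the highest brain library. A set of 12 reference genes served as a comparison, and 1 of them, the adaptor Ywhaz, was brain-high at 909 to 1365 against at most 712 CPM. With TMM factors and with DESeq size factors 0 of the 12 were brain-high and 2 were peripheral-high, and by the deposited FPKM 0 were either.

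Larger families gave a similar picture, and their members were counted over all detected genes. Of 25 glutamate receptor genes 23 were brain-high, of 34 protocadherins 29, of 19 synaptotagmins 15 and of 28 voltage-gated calcium channel genes 22, and none of these families had a peripheral-high member. Pcdh9, a protocadherin, was at 92.8 to 172 CPM in brain and at most 1.72 in the periphery. The 357 zinc finger genes named Zfp had 133 brain-high members (37.3%) and 15 peripheral-high ones, with between 93 and 123 brain-high under the other scalings. Carboxylesterases were peripheral-high in 10 of 18 cases and aldo-keto reductases in 8 of 19. Caspases, the proteases of cell death, were peripheral-high in 5 of 12 cases, with Casp8 at 25.1 to 136 CPM in the periphery and 2.19 to 4.17 in brain. Genes of epithelial junctions and filaments were called in both directions. Of 49 keratins 9 were brain-high (18.4%) and 3 peripheral-high (6.12%), near the 20.0% and 7.98% of all detected genes. Of 24 claudins 3 (12.5%) and 4 (16.7%) were so, which rests on few genes. Cldn3, Krt8 and Krt18 were peripheral-high, with Krt8 at 6022 to 7078 CPM in the colon, at least 54 elsewhere in the periphery and at most 4.65 in brain, whereas Cldn11, the claudin of myelin, was brain-high at 89.7 to 142 against at most 28.9 CPM.

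Genes of translation and respiration lay close to the limit and moved with the scaling. Of 80 cytosolic ribosomal protein genes 58 were peripheral-high by CPM, 70 by TMM-scaled CPM and 4 by the deposited FPKM values, and of 35 complex I subunits 17, 7 and 0. Rplp0 was at 503 to 1538 CPM in the periphery and 169 to 192 in brain, and Rps19 at 125 to 224 and 65.7 to 103, so that their gaps were 2.63 and 1.21. Many ribosomal protein genes have processed copies elsewhere in the genome that may share their reads. The ratio of FPKM to CPM, relative to the median of each gene over all libraries, differed between libraries. It ran from 0.285 in fat of DR-AL mice to 2.63 in liver of AL mice, so the counts by FPKM carry this factor.

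Brain-high genes were also ranked per length, by the median FPKM over the 6 brain libraries. Loci with an FPKM above 10000 in any library were left out, 26 in all, 7 of them brain-high or peripheral-high. The remaining brain-high genes were led by Cst3, the protease inhibitor cystatin C, at 761 to 1537 FPKM, and Calm2, a calmodulin gene, at 518 to 1360.0. Mbp, the myelin basic protein, followed at 432 to 1061, and Cpe, the enzyme that trims peptide hormones, at 548 to 1235. The order of these genes differed between libraries, with Calm2 above Cst3 in the hippocampus of DR mice, for example. These genes, chosen after values were seen, had gaps in CPM of 1.3, 1.88, 23.2 and 18.4. Bc1, a short noncoding RNA of dendrites, ranked among them at 332 to 1434 FPKM, but this rests on at most 3 counts in a library. The 3 calmodulin genes encode the same protein and may share reads. By the median FPKM over the peripheral libraries the remaining peripheral-high genes were led by Eef1a1, at 603 to 7382 FPKM. Rpl41 and Tpt1 were also near the top, all genes of translation or growth. These medians and ranges carry the factor between libraries given above. By CPM, Eef1a1 was at 4224 to 7385 in the periphery.

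Long noncoding RNAs made up 4.81% of the brain-high genes, 2.85% of the peripheral-high genes and 7.95% of all detected genes with an annotation. The locus of Meg3, an imprinted noncoding RNA, was at 6079, 6036 and 6785 CPM in hypothalamus, 399, 473 and 674 in hippocampus and 0.939 to 90.1 in the periphery. Miat was at 677, 621 and 619, 106, 115 and 128 and 0.0404 to 2.38 CPM, and B230209E15Rik at 93 to 178 CPM in brain and at most 0.184 in the periphery. For all 3 every hypothalamus library was above every hippocampus library. AW112010, an interferon-inducible RNA, was peripheral-high at 18.1 to 142 against 0.673 to 1.31 CPM. These were chosen after their values were seen.

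Brain-high genes were also longer. The median span from first to last annotated base was 32.5 kb for the brain-high genes, 14.0 kb for the peripheral-high genes and 19.2 kb for all detected genes, and 23.9%, 5.34% and 11.9% of them spanned at least 100 kb. They lay on the X chromosome in 5.40%, 1.72% and 4.08% of cases.

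The rule takes the lowest of the 6 brain libraries. A gene near 0 in 1 of the regions is therefore left out, unless every peripheral library is lower still. Of the 9 hypothalamus markers 0 were brain-high, although 8 were called higher in the hypothalamus, and of the 7 hippocampus markers 3 were brain-high and 6 called. The shares of brain-high genes called for either region are therefore in part set by the rule and are given as a description. Differences between the regions were tested with edgeR over the 6 brain libraries with diet as a term, and a gene was called at an adjusted p under 0.05 and at least a 2-fold difference. Over all 15742 genes tested, 13.8% were higher in the hypothalamus and 9.52% in the hippocampus. Of 4183 brain-high genes tested, 388 (9.28%) were higher in the hypothalamus and 650 (15.5%) higher in the hippocampus. Of 1348 peripheral-high genes, 75 (5.56%) and 44 (3.26%) were so.

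Among brain-high genes the hypothalamus was led by Bsx, a homeodomain factor of its feeding neurons, at 32.7, 21.1 and 12.1 CPM in AL, DR and DR-AL mice against 0.0494, 0.064 and 0.159 in the hippocampus. The log2 difference was 7.82 (SE 0.32), adjusted p = 9.743e-06 by the quasi-likelihood test of edgeR with Benjamini-Hochberg adjustment. The highest peripheral library held 0.0408 CPM of Bsx, so its place among the brain-high genes rests on few reads. Gal, the precursor of galanin, was at 32, 27 and 30.9 against 0.37, 0.256 and 0.477 CPM, a log2 difference of 6.13 (SE 0.14), adjusted p = 4.01e-06. Magel2, an imprinted gene of the Prader-Willi region, and Nkx2-1, a factor that patterns the hypothalamus, followed at 6.06 and 6.03, with E030019B13Rik at 7.19 and Arhgap36 at 6.66. For each of them every hypothalamus library was above every hippocampus library.

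In the hippocampus Neurod6 led, at 261, 254 and 186 CPM against 0.404, 1.07 and 1.86 in the hypothalamus, a log2 difference of -7.92 (SE 0.34), adjusted p = 1.079e-05. Neurod2, a related factor, was at 118, 133 and 125 against 0.303, 2.87 and 2.02 CPM, and the difference was -6.42 (SE 0.36), adjusted p = 2.561e-05. Grin2a, an NMDA receptor subunit of mature synapses, was at 175, 199 and 179.9 against 3.98, 3.15 and 3.27 CPM, with a difference of -5.97 (SE 0.11), adjusted p = 2.937e-06 and no overlap between the regions. Ddn, a dendritic protein, and Adcy1, a calcium-stimulated adenylate cyclase, were 2131 to 2336 and 1119 to 1268 CPM in the hippocampus against 58 to 115 and 33.9 to 73.9 in the hypothalamus.

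By role, 9 of the 13 genes of the postsynaptic scaffold were called for the hippocampus and 0 for the hypothalamus, against 9.52% and 13.8% of all genes tested. The presynaptic list had 8 of 19 and 0, the glutamate receptors 7 of 13 and 0, and the sodium and calcium channels 6 of 12 and 0. The neural transcription factors had 10 of 13 and 1. That list holds Neurod2 and Neurod6 but not Bsx or Nkx2-1, both called for the hypothalamus above, so its lean depends on which factors were listed. The neuropeptide list leaned the other way, with 6 of 16 called for the hypothalamus and 3 for the hippocampus. In it Tac1, the substance P precursor, was at 124, 97.6 and 65.6 against 8.17, 8.87 and 17.9 CPM, a log2 difference of 2.85 (SE 0.37), adjusted p = 0.0008334, and Cck, cholecystokinin, at 7.75, 20.7 and 20.7 against 183, 179 and 179.9, a difference of -3.77 (SE 0.29), adjusted p = 8.822e-05. Of the genes of GABA signalling 2 of 13 were called, both for the hippocampus, and no oligodendrocyte gene of 12 was called.

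**Figure D5:**
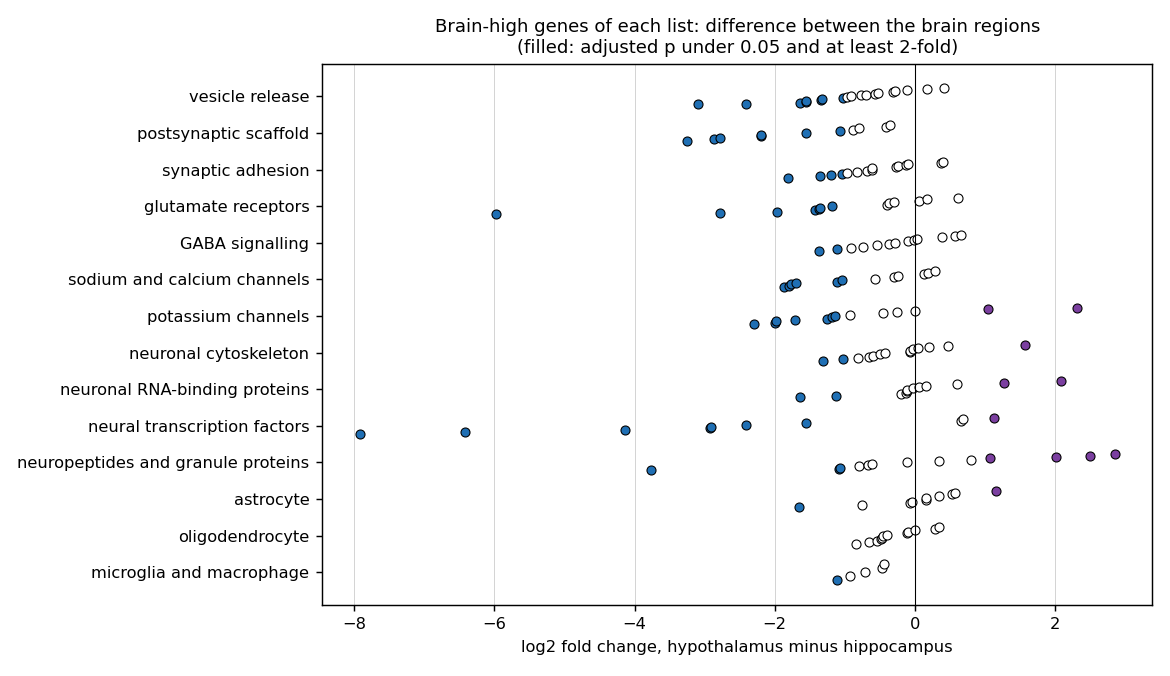
Log2 difference between hypothalamus and hippocampus for the genes of the lists that were brain-high, one point per gene, filled where the edgeR test called it. Positive values are higher in the hypothalamus. Grin2a, Neurod2 and Neurod6 lie at -5.97 or below, and 8 genes of the vesicle release list are called, all higher in the hippocampus.

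Peripheral-high genes were low in brain, yet some differed between the regions. Cyp2f2, a cytochrome P450, was at 2.6, 4.64 and 0.865 CPM in the hypothalamus and 0.272, 0.128 and 0.159 in the hippocampus, a log2 difference of 3.50 (SE 0.45), adjusted p = 0.0008125, and the class I gene H2-Q10 differed by 3.38 (SE 0.45), adjusted p = 0.0009006. On the hippocampal side Iyd, an iodotyrosine deiodinase, was at 3.78, 4.87 and 3.22 against 0.169, 0.244 and 0.352 CPM, a difference of -4.16 (SE 0.30), adjusted p = 6.914e-05. In the same 6 libraries the summed choroid plexus markers were at 47.1 to 68.6 CPM in the hypothalamus and 137 to 227 in the hippocampus, 5 of 5 markers being detected in both, and their part in these differences was not tested.

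No gene of either group was called for diet. With edgeR and an adjusted p under 0.05, 0 brain-high and 0 peripheral-high genes passed for DR against AL or DR-AL against AL, in brain or in the periphery, or for a different effect of DR in brain and periphery. At an unadjusted p under 0.05 there were 157 (3.75%) and 389 (9.30%) of 4183 brain-high genes for DR and DR-AL in brain, where all 15742 genes tested gave 713 (4.53%) and 1363 (8.66%). In the periphery there were 84 and 97 of 3281 brain-high genes (2.56% and 2.96%), against 676 and 839 of all 15913 (4.25% and 5.27%). For the peripheral-high genes these numbers were 40 and 70 of 1348 in brain (2.97% and 5.19%) and 94 and 80 of 1680 in the periphery (5.60% and 4.76%). The test of a different effect in brain and periphery gave 221 of 4172 (5.30%) and 34 of 1680 (2.02%), against 684 of all 17476 (3.91%). Over all genes, edgeR called 1, 0, 2, 1 and 0 genes in these 5 tests and DESeq2 called 9, 45, 19, 48 and 9. With 1 library for each tissue and diet, tissues take the place of replicates in these tests. An effect of diet in 1 tissue only could therefore be missed by them.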

How the data were processed

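RNA from 5 tissues of mice on 3 diets was sequenced as strand-specific, paired-end libraries, 15 in all. The study's methods state that reads were trimmed by the authors, aligned with Strand software to mm10 and cleared of duplicates, whereas the processing notes name mm9 and DESeq2. The authors deposited 1 table with a read count and an FPKM value per locus and library. The counts are whole numbers without normalization. The deposited FPKM carry a factor that differs between libraries. They were used as an alternative and to rank genes per length, where medians and ranges over libraries carry that factor. Of 23471 loci matched to RefSeq by gene ID, 13.5% overlapped the GRCm38 position, so the coordinates printed are those of RefSeq on GRCm38.p6, as are the promoters. Of the 23589 named loci, 677 carry more than 1 gene name and were kept as they are.

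CPM were computed from the counts on named loci. The Z test of the study compares 2 libraries of 1 tissue and does not cover brain against periphery. Fits used edgeR 4.0.16 (quasi-likelihood test, TMM, filterByExpr, Benjamini-Hochberg adjustment) on all genes, with tissue and diet as terms, in R 4.3.3. The fit of brain against periphery serves as background and never as a test of genes chosen by the rule. Scripts were tested on simulated counts. Alternatives were DESeq2 1.42.0, other scalings, filters, equal depth, and fits without each tissue, diet or doubtful library.

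The genes named are the 10 per direction with the widest gap and at least 100 counts in every library of the higher group, up to 4 per list and members that go against it, both members of each pair, genes next to the limit, the leading genes of the other tests, and markers. Others were chosen after values were seen, as the text says for families, promoters, FPKM and noncoding RNAs, and as holds for any further list member, Cyp46a1, Irf7, Pcdh9, Casp8, Cldn3, Cldn11, Krt8, Krt18, Rplp0 and Rps19. The members and the 23 lists were chosen with earlier results of these data known. Of 313 list genes, 2 had no locus. Some genes that these rules name are not reported here, although the counts over lists include them.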

Additional observations from a re-analysis of the deposited data

Results flagged for a closer look

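Loci without a gene name were outside the comparison. Of 10014 such loci, 1257 (12.6%) were higher in every brain library than in any peripheral library and 143 (1.43%) were higher in every peripheral library. At least 100 counts in every library of the higher group were found for 80 and 2 of them. They are listed here because they carry a difference in data the report does not use, and what they are was not tested. In 24 checks of single values, the shares of counts on brain-high and peripheral-high genes and the CPM of the genes with the widest gaps, no library stood apart from the other brain or the other peripheral libraries. Those values come from genes picked by the rule, and the tissues of a group were pooled, so a deviating library could go unseen. Markers of other tissues were not among these checks, and for them the fat and hypothalamus libraries of AL mice differed from the others of their tissue.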

How the results depend on the processing

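The counts of genes that did not overlap moved by over 1.5 times under few settings. TMM-scaled CPM gave 2570 peripheral-high genes, a gap of at least 2-fold left 2243 brain-high and 587 peripheral-high genes, leaving out the liver gave 3134 peripheral-high genes, and leaving out fat gave 7274 brain-high genes. Just under that limit were 2481 peripheral-high genes with DESeq size factors, 2504 without the colon and 2503 without the hypothalamus. With fewer tissues the rule asks for less. Leaving out loci at 0 counts in a single library, an alternative chosen after seeing the data, gave 4223 brain-high and 1692 peripheral-high genes. By the deposited FPKM values 2983 of the 4229 brain-high and 913 of the 1692 peripheral-high genes were also called. The named members were chosen in part for wide gaps and say less about the whole sets. Of 383 named members 368 were also called by TMM-scaled CPM, 367 by DESeq size factors, 324 by the deposited FPKM values and 297 with a gap of at least 2-fold. None was called in the opposite direction in these 4 settings.

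Without a fold requirement 5440 genes were higher in the hypothalamus and 5262 in the hippocampus. For DR in brain DESeq2 gave 9 genes and a fit with no tissue term 0, against 1. For DR-AL in brain DESeq2 gave 45, against 0. For DR in the periphery DESeq2 gave 19, no filter on low counts 11 and no tissue term 0, against 2, and the fits without liver, fat or colon gave 0, 6 and 1. For DR-AL in the periphery the same settings gave 48, 60 and 0, against 1, and 0, 3 and 3. DESeq2 gave 9 genes for a different effect of DR in brain and periphery, against 0. The cause of these differences was not tested.

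In the fit of brain against periphery 4 named genes changed direction. With compartment and diet as the only terms Aqp4 stood at -0.21 and Mgp at -0.48 on the log2 scale. Without the liver the locus of C4a and C4b stood at 0.047 and Fn1 at 0.20.

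The labels carry no replicate numbers. Tissues of 1 diet share a pool of mice, and diet entered the fits as a term that pairs them. Without it 2194 and 1490 genes were higher in the hypothalamus and the hippocampus, against 2171 and 1498. With 1 pooled library for each tissue and diet, the spread between mice is unknown. At these depths 1 count is about 0.04 CPM, so genes at a few counts, such as Lhx3 and Bsx in the hippocampus, are weakly placed.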
